A study of Mus musculus with 4 samples.

Results

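The small leucine-rich proteoglycan genes Dcn, Bgn, Lum, Fmod, Ogn, Omd, Aspn, Prelp and Kera were followed across 4 mouse cell populations measured on 1-colour Agilent arrays. All non-control probes that the array files name for these genes were taken, which gave 9 probes on 18 spots for 9 genes, of 55681 probes on 59305 spots and 36039 genes with a value in all. Each gene had a single probe, and the Kera probe was printed 10 times. Both iPS-OSH and iPS-J are lines of induced pluripotent stem (iPS) cells on the C57BL/6 background, and they were set beside embryonic stem cells (ESC) of the 129SV background and mouse embryonic fibroblasts (MEF) of the C57BL/6 background. iPS cells are body cells reprogrammed to a state like that of embryonic stem cells. The pluripotent lines were grown in serum with leukaemia inhibitory factor and MEF in serum without it. The labels name no reprogramming factors, passage or age, and they do not say whether feeder cells were used. Each group held 1 array, so no difference below has a replicate check or a p-value, and the number of arrays limits the precision of every value.

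Small leucine-rich proteoglycans are secreted proteins with a core of leucine-rich repeats, most of which carry chondroitin, dermatan or keratan sulphate chains. They coat collagen fibrils and set fibril width and spacing, and several bind growth factors of the transforming growth factor family or receptors at the cell surface. They are produced by fibroblasts, tendon, cartilage, bone and the corneal stroma. Class I holds Dcn (decorin), Bgn (biglycan) and Aspn (asporin), class II holds Lum (lumican), Fmod (fibromodulin), Kera (keratocan), Prelp and Omd (osteomodulin), and class III holds Ogn (osteoglycin, or mimecan) among the genes described here.

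The arrays lay on 1 slide and were scanned in 3 sessions, with MEF in the first, both iPS lines in the second and ESC in the third. Session and population therefore cannot be told apart in comparisons with MEF or ESC, and strain and population cannot be told apart in comparisons with ESC. Signals are the scanner software's processed intensities, and each array was scaled to the 75th percentile of its non-control spots, which ranged from 1241 (iPS-J) to 1765 (MEF). Between 67.0% and 81.7% of spots were well above background. The log2 SD between repeated spots of a probe was 0.07 in iPS-OSH, 0.10 in iPS-J, 0.16 in ESC and 0.13 in MEF, which gives a difference between arrays a spot SD of 0.12 to 0.20. It covers spot noise only, and among dim probes the repeated spots differed more, with SDs of 0.20 to 0.46. The labels were checked against marker genes. All 12 pluripotent cell markers were at least 2-fold higher in each pluripotent line than in MEF, and 0 of 13 fibroblast markers were. All 13 fibroblast markers were nevertheless well above background on all 4 arrays.

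The probe sequences of Dcn and Bgn are shown because these genes had signals far above background on all 4 arrays. Their signals in iPS-OSH also exceeded those in iPS-J and ESC, which held for Lum and Ogn too. The log2 differences from iPS-J and ESC were 1.82 and 2.27 for Bgn, 2.99 and 2.88 for Lum, and 2.19 and 2.08 for Ogn. Both sequences come from the array files, which place them on the mm9 assembly at chr10:96980233-96980292 and chrX:70738554-70738613, on the plus strand. Exon and UTR positions were not annotated here.
Dcn probe: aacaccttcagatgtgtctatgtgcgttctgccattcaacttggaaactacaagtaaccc
Bgn probe: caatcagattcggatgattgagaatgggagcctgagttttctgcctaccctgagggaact
The GC content of the 9 member probes ranged from 35% to 48.3%.

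Dcn, which encodes a collagen-binding proteoglycan that sequesters transforming growth factor beta, had its highest signal in iPS-OSH. Its signal was 39.4 times the 75th percentile in iPS-OSH, 15.6 times in MEF, 3.33 times in iPS-J and 2.05 times in ESC. The unscaled signals were 61552, 27457, 4134 and 2677 in the same order. None of these spots was saturated. The iPS-OSH array thus stood above the fibroblast array, and iPS-J and ESC stood far below both. Bgn, a close relative of Dcn that also binds collagen and signals through Toll-like receptors when set free, followed another order. Its signal was 8.72 times the 75th percentile in iPS-OSH, 2.47 in iPS-J, 1.81 in ESC and 13.4 in MEF. Here MEF was highest and iPS-OSH came second. Aspn, whose protein has a run of aspartate residues in place of glycosaminoglycan attachment sites, was high in MEF alone. Its signal was 5.38 times the 75th percentile in MEF, 0.128 in iPS-OSH, 0.0834 in ESC and 0.0161 in iPS-J, where it was not well above background.

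Lum, a keratan sulphate proteoglycan needed for corneal transparency, was high in MEF and iPS-OSH. Its signal was 1.07 times the 75th percentile in iPS-OSH, 0.135 in iPS-J, 0.145 in ESC and 1.44 in MEF. The iPS-J and ESC values differed by less than the spot SD. Fmod, which shares collagen binding sites with Lum, was at 0.117 in iPS-OSH, 0.0734 in iPS-J, 0.207 in ESC and 2.00 in MEF, so that among the pluripotent lines ESC, not iPS-OSH, had the highest value. Omd, named for its presence in bone, had a signal of 385 in MEF and 45.6 in iPS-OSH, and it was not well above background in iPS-J (8.54) or ESC (7.71). Prelp, which links basement membrane to connective tissue, was dim as well, with signals of 158 in MEF and 58.6 in iPS-OSH. It was not well above background in iPS-J (28.1) or ESC (11.8). Kera, a keratan sulphate proteoglycan of the cornea, was not well above background on any array. Its mean signals were 7.35 in iPS-OSH, 9.11 in iPS-J, 18.3 in ESC and 13.8 in MEF, where 1 of 10 ESC spots and 1 of 9 usable MEF spots passed the software's test. Kera therefore entered no comparison.

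Ogn, a class III member abundant in connective tissue, was highest in MEF by a wide margin. Its signal was 9.14 times the 75th percentile in MEF, 0.528 in iPS-OSH, 0.125 in ESC and 0.115 in iPS-J. The iPS-J and ESC values again differed by less than the spot SD, and iPS-OSH lay between them and MEF. In all, 8 members were well above background in iPS-OSH and in MEF, 6 in ESC and 5 in iPS-J.

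**Figure D1:**
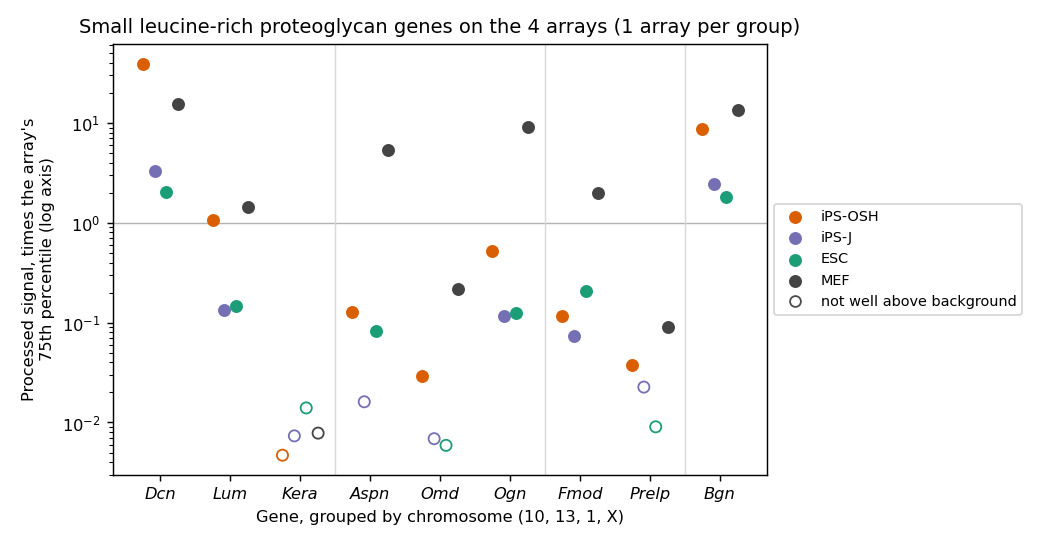
Processed signal of the 9 genes on each of the 4 arrays, as multiples of the array's 75th percentile on a log axis, with 1 point per array and no error bars because each group held 1 array; open circles were not well above background. Dcn is the gene whose iPS-OSH point lies above MEF (39.4 against 15.6), and points of different genes come from different probes, so heights are to be compared within a gene.

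Against MEF, the members separated into those within 2-fold of MEF or higher in iPS-OSH and those at least 2-fold lower. Dcn was 2.53-fold higher in iPS-OSH than in MEF (log2 difference 1.34), and Bgn and Lum lay within 2-fold of MEF, at -0.62 and -0.43. Aspn was 42.0-fold lower, Ogn 17.3-fold, Fmod 17.1-fold, Omd 7.48-fold and Prelp 2.39-fold. The dim Omd moved from -2.90 to -1.79 (log2) with normexp correction, and Prelp to -0.67. With detection set by the ERCC control probes, Omd became a bound of -1.49. Of the 8 members compared, 1 was thus at least 2-fold higher and 5 were lower, with a median log2 difference of -2.08. Over all 31858 genes compared, 13.7% were at least 2-fold higher, 25.1% were lower, 38.8% differed in either direction and the median was -0.34. The share of members higher, 1 of 8, is near that of all genes and is no result about them. Dcn had the 2992nd highest difference of all these genes, with 90.6% of genes below it. Aspn had the 7th lowest difference, Ogn the 28th and Fmod the 29th. A span of 6.73 log2 units separated Dcn from Aspn, on either side of MEF. With bounds at their value, the members spanned 5.91 in iPS-J and 4.33 in ESC, so a wide spread was not particular to iPS-OSH.

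In iPS-J, all 8 members compared were at least 2-fold lower than in MEF, where 26.2% of 31355 genes were lower, 16.3% higher and 42.4% different in either direction. Dcn was 4.67-fold lower, Bgn 5.42-fold, Lum 10.7-fold, Fmod 27.2-fold and Ogn 79.2-fold. The remaining values are bounds, taken against the dimmest detected signal of the iPS-J array, or against the probe's own signal where that was higher. They put Aspn at least 235-fold, Omd at least 9.53-fold and Prelp at least 3.91-fold lower. These bounds depend on the floor. On the log2 scale Aspn was -7.88 as reported but -5.79 with detection set by the ERCC control probes and -5.94 with normexp correction, Omd was -3.25 but -1.16 and -1.55, and Prelp was -1.97 but -0.51 with normexp. Normexp also moved Fmod from -4.77 to -3.96 and Ogn from -6.31 to -5.69. With signals before multiplicative detrending, Dcn moved from -2.22 to -2.68 and Bgn from -2.44 to -2.67. The median was -3.33, with bounds at their value, against -0.29 over all genes.

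In ESC, all 8 members compared were again at least 2-fold lower than in MEF, where 16.7% of 32108 genes were lower, 22.6% higher and 39.3% different in either direction. Ogn was 73.1-fold lower, Aspn 64.6-fold, Lum 9.92-fold, Fmod 9.65-fold, Dcn 7.60-fold and Bgn 7.38-fold. Omd was at least 8.84-fold and Prelp at least 3.63-fold lower, log2 values of -3.14 and -1.86. The bound of Omd weakened to -0.12 with ERCC-based detection, and that of Prelp to -0.69 with normexp correction. The calls were lost there, but such a bound does not place a gene within 2-fold of MEF. Aspn moved from -6.01 to -4.75 with ERCC-based detection and to -5.25 with normexp, and Ogn from -6.19 to -5.51 with ERCC-based detection. With signals before multiplicative detrending, Dcn moved from -2.93 to -3.27 and Bgn from -2.88 to -3.29. The median was -3.21, against 0.11 over all genes. These comparisons share the MEF array, so a deviation of that array would enter all of them.

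**Figure D2:**
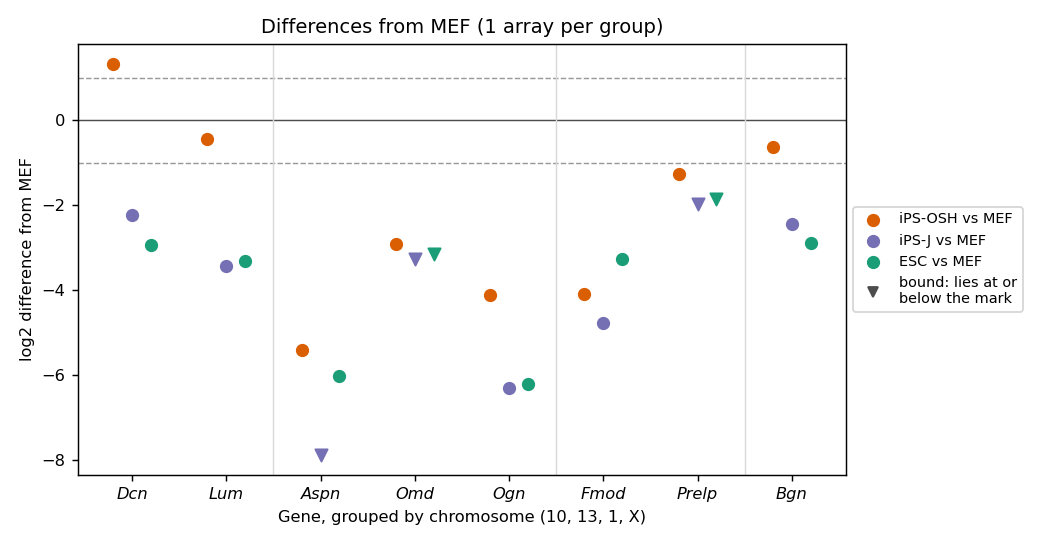
Log2 differences of 8 genes from MEF in iPS-OSH, iPS-J and ESC, grouped by chromosome, with dashed lines at 2-fold; triangles are bounds, where the pluripotent array was not well above background. The iPS-OSH point of Dcn (1.34) lies above the upper dashed line, and those of Lum (-0.43) and Bgn (-0.62) lie between the dashed lines. Those of Aspn (-5.39), Ogn (-4.11) and Fmod (-4.10) lie far below the lower one.

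Between the pluripotent lines, Dcn, Lum, Ogn and Bgn set iPS-OSH apart. The iPS-OSH and iPS-J arrays had the same strain and scan session, and iPS-OSH had the higher signal by at least 2-fold for 5 of 8 members compared and the lower one for 0. Of 29849 genes, 8.88% were higher and 7.42% lower, 16.3% in either direction. Dcn was 11.8-fold higher (log2 difference 3.56), with 58 genes above it in rank, Lum 7.93-fold, Ogn 4.57-fold and Bgn 3.53-fold, and Aspn was higher by at least 5.60-fold. Aspn lost that call with normexp correction (0.88) and with ERCC-based detection (0.40), where its log2 value of 2.49 rests on the floor of the iPS-J array. Fmod lay within 2-fold at 0.67, and the bounds of Prelp and Omd were 0.71 and 0.35. The median over the members was 2.01, against 0 over all genes.

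Against ESC, iPS-OSH was at least 2-fold higher for 4 of 8 members and lower for 0, while 8.79% of 31215 genes were higher and 27.6% lower, 36.4% in either direction. Dcn was 19.2-fold higher, with the 22nd highest difference of all genes compared, Lum 7.36-fold, Bgn 4.82-fold and Ogn 4.22-fold. Aspn (0.62) and Fmod (-0.83) lay within 2-fold, and the bounds of Prelp and Omd were 0.60 and 0.24. Under quantile normalization Aspn and the bound of Prelp both rose to 1.31. Fmod fell to -1.02 with the percentile over probes detected on all arrays. iPS-J lay close to ESC for most members. Dcn (0.70), Bgn (0.45), Lum (-0.11) and Ogn (-0.12) were within 2-fold, Fmod was 2.82-fold lower in iPS-J and Aspn at least 3.64-fold lower. Both calls were lost under other settings, Aspn at -0.69 with normexp correction and Fmod at -0.80 with quantile normalization. As reported, 2 of 6 members were lower and 0 higher, where 25.9% of 30203 genes were lower, 5.51% higher and 31.4% different in either direction. The members' share is near that of all genes and is no result about them.

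**Figure D3:**
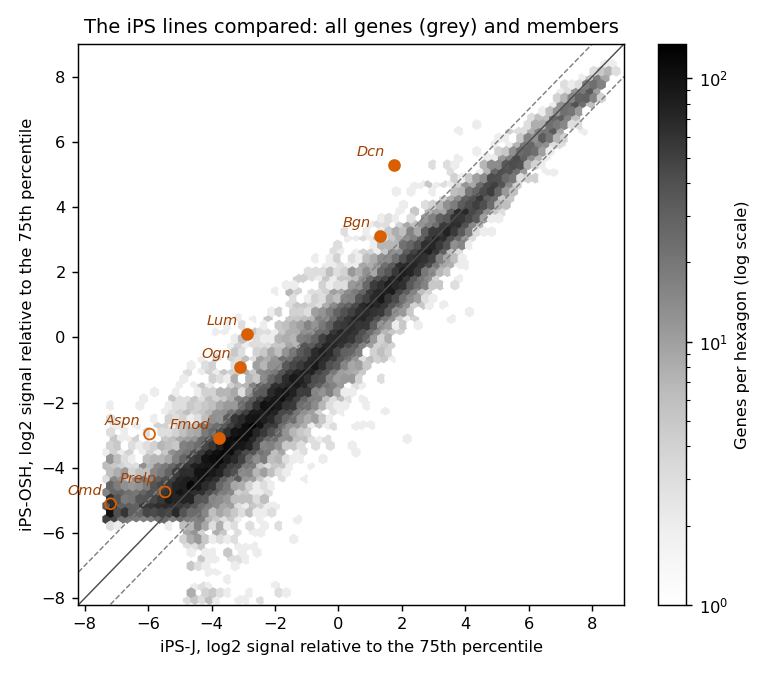
Log2 signal relative to the 75th percentile in iPS-J (horizontal) and iPS-OSH (vertical) for all genes detected on either array (grey hexagons) and 8 members (orange; open where iPS-J was not well above background), with the line of equality and dashed lines at 2-fold. Dcn, Lum, Ogn and Bgn lie above the dashed band, with differences of 3.56, 2.99, 2.19 and 1.82, and Fmod (0.67) lies inside it.

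Fibroblast genes moved with these members. The summed signal of the 13 fibroblast markers was 526 times the 75th percentile in iPS-OSH, 169 in iPS-J, 121 in ESC and 1585 in MEF, and none of the 13 was at or below background. In iPS-OSH, 11 of 13 were at least 2-fold lower than in MEF and 0 higher, with differences from -3.92 (Col3a1) to -0.45 (Twist2) and a median of -1.69. All 13 therefore had a lower signal in iPS-OSH than in MEF, while Dcn had a higher one, and Aspn, Ogn and Fmod lay below the lowest of the 13. Against iPS-J, 11 of 13 were higher in iPS-OSH (median 2.28), and in iPS-J against ESC 12 of 13 lay within 2-fold. Over all genes, 25.1% were lower and 13.7% higher in iPS-OSH than in MEF, and 8.88% were higher in iPS-OSH than in iPS-J. Relative to MEF, 26.2% were lower and 16.3% higher in iPS-J, and 16.7% and 22.6% in ESC. In iPS-J against ESC, 31.4% of all genes differed by at least 2-fold. Smooth muscle markers, with Acta2 and Tagln the brightest in MEF, summed to 207 in iPS-OSH, 46.5 in iPS-J, 19.0 in ESC and 706 in MEF. Of these 5 markers, 4 were at least 2-fold lower than in MEF in each pluripotent line and 0 higher. Des lay within 2-fold of MEF, at -0.29 in iPS-OSH, 0.24 in ESC and 0.31 in iPS-J. Primitive endoderm markers summed to 142 in iPS-J, 7.50 in iPS-OSH, 19.8 in ESC and 2.06 in MEF. Of these 8 markers, 8 were at least 2-fold higher than in MEF in iPS-J, and 6 in iPS-OSH and in ESC, with 0 lower. Lama1 was higher than in MEF in each line, whereas Gata6 lay below MEF in iPS-OSH (-0.31) and ESC (-0.75). The part of cells of these types, or of their RNA, in the members' signals was not tested. In bulk RNA fewer cells of a type and less RNA per cell cannot be told apart.

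Markers of tissues known for these proteoglycans differed from MEF in unlike ways. Over all genes compared with MEF, 25.1% were at least 2-fold lower and 13.7% higher in iPS-OSH. The shares were 26.2% and 16.3% in iPS-J, and 16.7% and 22.6% in ESC. Counts near these shares, such as those of cartilage in iPS-J and of macrophage markers in iPS-OSH, are no result about the lists. The tendon markers summed to 15.9 in MEF and to 2.20 in iPS-OSH, 1.44 in ESC and 1.22 in iPS-J. Tnmd, the tenomodulin gene of tendon, had a signal of 18280 in MEF and 182 in iPS-OSH and was not well above background in iPS-J (12.1) or ESC (11.6). Scx, a transcription factor of tendon progenitors, had signals of 6421 in MEF, 2771 in iPS-OSH, 1154 in ESC and 1172 in iPS-J. Of 4 tendon markers, 3 were at least 2-fold lower than in MEF in each pluripotent line. For cartilage, Sox9 and Col2a1 had signals of 3532 and 4707 in MEF, 814 and 1227 in iPS-OSH, 97.6 and 1356 in ESC and 101 and 581 in iPS-J. Being the brightest of their list in MEF, they do not stand for the others. Of 7 cartilage markers compared, 3 were lower and 0 higher in iPS-OSH than in MEF, 2 lower and 1 higher in iPS-J, and 2 lower and 2 higher in ESC, where the median was 0.42. Acan, the aggrecan gene, lay above MEF by 0.57 in iPS-OSH, 1.69 in ESC and 0.76 in iPS-J. Of 7 bone markers, 5 were lower in iPS-OSH, 2 in ESC and 4 in iPS-J, and 1 was higher in each line. Sp7 and Bglap had signals of 695 and 465 in MEF and 270 and 181 in iPS-OSH, with Sp7 at 739 in ESC. The higher gene was Alpl, the alkaline phosphatase gene, which is also a known marker of pluripotent cells. It gave 11758 in iPS-OSH, 8569 in ESC and 7794 in iPS-J against 142 in MEF. With it, the summed bone signal ran from 6.74 to 7.93 times the 75th percentile in the pluripotent lines, above that of MEF. The macrophage genes Csf1r and Lyz2 differed from MEF in iPS-OSH by -1.94 and -0.31, and the endothelial genes Kdr and Pecam1 by -0.52 and 1.86. Of 5 macrophage markers, 1 was lower there and 0 higher, and of 4 endothelial markers 3 were higher and 0 lower. The part of these markers' cell types in the members' signals was not tested.

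Most members lie in gene clusters, and neighbours within a cluster did not always move alike. On chromosome 10 the files place Dcn, Lum and Kera in a row, with probes at chr10:96980233-96980292, chr10:97035210-97035269 and chr10:97076230-97076289 (mm9). In iPS-OSH, Dcn and Lum were at 1.34 and -0.43 relative to MEF while Kera was not above background. Btg1, the nearest gene on the Dcn side with a probe, lay between 0.02 (iPS-OSH) and 0.47 (ESC). Epyc, the class III member beyond Kera, was not well above background on any array. On chromosome 13 Aspn, Omd and Ogn follow each other, with probes at chr13:49662479-49662538, chr13:49687847-49687906 and chr13:49719549-49719608. In iPS-OSH all 3 lay below MEF, at -5.39, -2.90 and -4.11. Ecm2, which overlaps the family in sequence and flanks Aspn, lay at -2.10 in iPS-OSH and -1.16 in iPS-J but at 0.57 in ESC. Nol8, a nucleolar protein gene on the Ogn side, was higher than in MEF in each pluripotent line, by 1.58 in ESC, 1.74 in iPS-OSH and 1.79 in iPS-J. On chromosome 1, Prelp (chr1:135806855-135806914, minus strand) and Fmod (chr1:135943998-135944057) lie beside Optc, the opticin gene. Optc differed from MEF by -3.52 in iPS-OSH and had bounds of -4.17 in iPS-J and -4.06 in ESC. Btg2, on the other side of Fmod, lay between -0.77 and -0.18. Bgn stands apart from the others on the X chromosome, between Haus7, which differed from MEF by -0.58 to -0.23, and Atp2b3. Atp2b3, a calcium pump gene, was higher than in MEF by 2.42 in iPS-J and by 0.44 in ESC. In iPS-OSH it was not well above background and had a bound of -1.24.

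Aspn and Ogn were the members farthest below MEF in all pluripotent lines, while Bgn lay within 2-fold of MEF in iPS-OSH. In iPS-OSH, Ogn (-4.11) and Fmod (-4.10) differed by less than the spot SD. Their order turned with signals before multiplicative detrending, at -4.00 for Ogn and -4.27 for Fmod. The 250 bases upstream of the start sites of Aspn, Ogn and Bgn were chosen on the values as reported and are shown. They are RefSeq sequences of the GRCm38.p6 assembly, another build than that of the probes, at chr13:49544193-49544442, chr13:49607765-49608014 and chrX:73483351-73483600, all on the plus strand. Capitals mark matches on either strand to TATAAA (the TATA box), CCAAT (bound by NF-Y), TGANTCA (the AP-1 element), GGAATG (bound by TEAD factors) or TGTGGT (bound by Runx factors). Of the 9 members, 7 had an entry in the promoter table, without Dcn and Lum.
Aspn promoter: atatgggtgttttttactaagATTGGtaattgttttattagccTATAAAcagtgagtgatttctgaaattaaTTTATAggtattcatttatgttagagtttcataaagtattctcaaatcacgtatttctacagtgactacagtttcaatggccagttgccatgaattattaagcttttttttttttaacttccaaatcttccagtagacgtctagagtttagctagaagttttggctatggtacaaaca
Ogn promoter: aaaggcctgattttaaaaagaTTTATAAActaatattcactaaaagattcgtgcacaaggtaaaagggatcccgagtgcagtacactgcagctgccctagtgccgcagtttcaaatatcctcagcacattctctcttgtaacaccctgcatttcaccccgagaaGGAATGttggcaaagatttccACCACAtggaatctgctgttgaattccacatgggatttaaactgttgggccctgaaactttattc
Bgn promoter: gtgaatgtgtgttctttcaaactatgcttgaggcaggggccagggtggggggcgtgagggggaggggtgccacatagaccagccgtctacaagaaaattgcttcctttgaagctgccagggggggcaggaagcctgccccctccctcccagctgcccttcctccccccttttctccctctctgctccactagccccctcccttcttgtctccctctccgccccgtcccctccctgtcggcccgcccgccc
Aspn had 2 matches to TATAAA and 1 to CCAAT, and Ogn had 2 overlapping matches to TATAAA, 1 to GGAATG and 1 to TGTGGT. Bgn had no match to these motifs in this window. Of 32851 promoters of the same length, 12.4% held the TATA box, 33.8% the NF-Y motif, 6.75% the AP-1 element, 12.6% the TEAD motif and 14.0% the Runx motif. None of the TATAAA matches of Aspn and Ogn lay within 170 bases of the start site. GC content was 30% for Aspn, 38.4% for Omd, 42% for Ogn, 42.4% for Kera, 51.2% for Fmod, 55.6% for Prelp and 64.4% for Bgn, against a median of 52.4% over all promoters, and 1.47% of promoters lay below Aspn. Such matches describe the sequence and do not mark a bound site.

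Other genes of the family were mostly low. Of the 9 other small leucine-rich proteoglycan genes on the array, 8 entered the comparison of iPS-OSH with MEF, and 5 were at least 2-fold lower and 1 higher, with a median of -1.24. In iPS-J 6 of 8 were lower and 0 higher, and in ESC 3 of 8 were lower and 0 higher, with a median of 0.36. Of all genes, 25.1% were lower and 13.7% higher in iPS-OSH than in MEF. The shares were 26.2% and 16.3% in iPS-J, and 16.7% and 22.6% in ESC. Podn, which encodes podocan, gave 1405 in MEF, 482 in iPS-OSH and 120 and 129 in iPS-J and ESC, and its differences from MEF were -1.37 in iPS-OSH and -3.04 and -3.01 in iPS-J and ESC. It stood higher in iPS-OSH than in iPS-J by 1.67, as Lum and Bgn did. Podnl1, its closest relative, gave 891, 171, 107 and 324 in the same order of arrays. Optc gave 728 in MEF and 56.3 in iPS-OSH and was not well above background in iPS-J or ESC. Chad, the chondroadherin gene of cartilage, gave 618, 255, 196 and 600.2, and its relative Chadl 1306, 808, 1005 and 1375. Nyx, the nyctalopin gene of the retina, was the gene of this list higher in iPS-OSH than in MEF, by 1.27, with signals of 146 against 68.6. Tsku, the tsukushi gene, gave 920, 747, 267 and 854.

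Genes that make the chains or the fibrils these proteins bind were taken from lists drawn up from general knowledge. Of 10 collagens of the fibril and its surface, all 10 were at least 2-fold lower than in MEF in every pluripotent line. The medians were -2.43 in iPS-OSH, -4.60 in ESC and -4.37 in iPS-J. Over all genes, 25.1% were lower than in MEF in iPS-OSH, 16.7% in ESC and 26.2% in iPS-J. Col5a2 and Col3a1, which build thin fibrils, differed from MEF by -4.56 and -3.92 in iPS-OSH, and Col12a1, on the fibril surface, by -2.15. Col1a2 lay at -1.78 and Col5a1 at -2.60. Against iPS-J, 8 of 10 collagens were higher in iPS-OSH and 0 lower, with a median of 2.02, where 8.88% of all genes were higher and 7.42% lower. Decorin's gene thus had a higher signal in iPS-OSH than in MEF while each of these collagen genes had a lower one.

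Of 22 genes of chondroitin and dermatan sulphate synthesis, 10 were at least 2-fold lower than in MEF in iPS-OSH and 0 higher. In iPS-J 13 were lower and 0 higher, and in ESC 14 were lower and 1 higher. Of all genes, 25.1% were lower and 13.7% higher in iPS-OSH, 26.2% and 16.3% in iPS-J, and 16.7% and 22.6% in ESC. Csgalnact1, which starts chondroitin chains, differed from MEF by -2.77 in iPS-OSH, and by -5.37 and -5.01 in iPS-J and ESC. Chpf2, a chondroitin polymerizing factor, lay at -1.40, -2.72 and -4.28 in that order. Chst12, a sulphotransferase, lay at -0.97, -2.06 and -3.02. Of 7 genes of keratan sulphate synthesis, 4 were lower and 1 higher in iPS-OSH. Chst2, a sulphotransferase, lay at -1.35 in iPS-OSH but -4.78 in iPS-J and -4.67 in ESC, and the chain-extending enzyme gene B3gnt7 was higher than in MEF by 3.06, 3.32 and 2.75. B4galt1 lay at -1.17 in iPS-OSH and B3gnt2 at -0.20.

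Among 11 proteases that process procollagen or cleave these core proteins, 6 were lower and 2 higher in iPS-OSH than in MEF. In iPS-J 8 were lower and 0 higher, and in ESC 9 were lower and 0 higher. The shares of all genes lower and higher were 25.1% and 13.7% in iPS-OSH, 26.2% and 16.3% in iPS-J, and 16.7% and 22.6% in ESC. The genes higher in iPS-OSH were the stromelysin gene Mmp3 (3.85) and the collagenase gene Mmp13 (2.37). Their products can cleave small leucine-rich proteoglycans. Mmp3 gave 3815 in iPS-OSH against 299 in MEF, 306 in iPS-J and 256 in ESC. Mmp13 gave 685 in iPS-OSH against 150 in MEF and was not well above background in iPS-J or ESC. Bmp1, the protease that removes the propeptides of Dcn and Bgn proteins, lay at -1.67 and Mmp14 at -1.31 in iPS-OSH. Tll1, a relative of Bmp1, had a signal of 1287 in iPS-OSH against 2898 in MEF, 73.1 in iPS-J and 137 in ESC. Of 15 growth factors and receptors bound by the family, 6 were lower and 1 higher in iPS-OSH, and 11 were lower and 1 higher in iPS-J. The higher gene was Bmp4 in both, by 1.36 in iPS-OSH and 2.03 in iPS-J. Tgfb3 lay at -3.01 in iPS-OSH and -4.95 in iPS-J, and Wisp1, whose product binds decorin and biglycan, at -3.08 and -6.15. Ctgf lay at -1.48 and Lrp1, an endocytic receptor for decorin, at -0.94 in iPS-OSH. Of 23 proteoglycans of other families compared, 11 were lower and 1 higher in iPS-OSH. Relative to ESC, 10 of these 23 were higher in iPS-OSH and 8 lower, where 8.79% of all genes were higher and 27.6% lower. The differences ran from -2.06 (Sdc4) to 4.07 (Cd44). Esm1 and Gpc4 lay at 3.29 and 3.13, and Srgn, the serglycin gene, lay at -1.87.

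**Figure D4:**
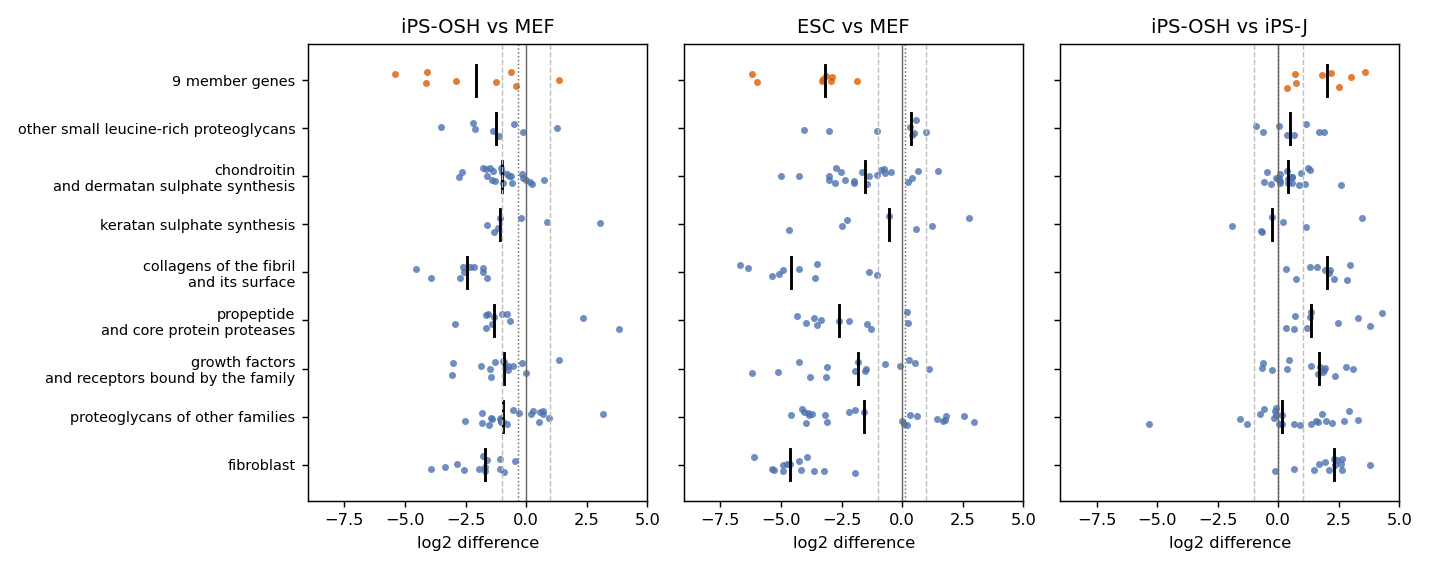
Log2 differences of single genes (points; bounds at their value) and list medians (black bars) for the members, 7 related gene lists and the fibroblast markers, in iPS-OSH vs MEF, ESC vs MEF and iPS-OSH vs iPS-J; the solid line marks 0, the dotted line the median of all genes and the dashed lines 2-fold. The members span 6.73 log2 units in iPS-OSH vs MEF around a median of -2.08, and the collagens all lie below the lower dashed line there.

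Genes with profiles nearest to a member were found by the Euclidean distance between log2 profiles centred on their own mean, over 4 arrays. The search took in the 14995 genes with a common symbol (a capitalized name, not a clone, locus or predicted gene identifier), of 24755 genes well above background on all arrays, so that genes without one could be nearer still. With so few arrays many genes are close by, and nearness is a description of these arrays only. The nearest to Dcn were Ereg (0.68), the epiregulin gene, Frzb (0.70) and Grem1 (0.70), which encode secreted antagonists of Wnt and of bone morphogenetic proteins. Nearest to Bgn were Trem2 (0.06), Pdpn (0.07) and St3gal1 (0.14), and nearest to Lum were Ccdc9b (0.15), Ly6a (0.19) and Mxra8 (0.26). Fmod was nearest to Ctnna2 (0.50), Mfap4 (0.75) and Heph (0.76), and Ogn to Pcdh18 (0.50), Col3a1 (0.60) and Postn (0.61). The members thus fell near different genes, and the distances for Dcn, Fmod and Ogn were larger than those for Bgn and Lum.

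Dcn's combination of differences was counted over all genes. The combination was set after Dcn's values were seen, so the count describes these arrays and is no test of Dcn. Of 31125 genes compared on all arrays, 18 (0.0578%) had a signal in iPS-OSH at least 2-fold above MEF and were at least 2-fold lower than in MEF in both iPS-J and ESC. Dcn was the one member among them. Genes picked from these 18 after their values were seen include Grem1, with signals of 36457 in iPS-OSH, 18232 in MEF, 4570 in iPS-J and 1738 in ESC, and Frzb, with 814, 374, 64.9 and 65.2. Dpt, which encodes the decorin-binding matrix protein dermatopontin, gave 203 in iPS-OSH against 95.8 in MEF and was not well above background in iPS-J or ESC. Mmp13, Mmp10, the chemokine genes Ccl11 and Ccl5 and the interferon-induced genes Ifit3 and Ifi44 were also among them.

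The differences of Dcn, Bgn and Lum from MEF in iPS-OSH moved little with the processing. Across the alternatives that gave a value, Dcn in iPS-OSH against MEF stayed between 1.16 and 1.51, and against iPS-J between 3.56 and 3.90. Bgn stayed between -0.79 and -0.54 and Lum between -0.60 and -0.37 in iPS-OSH against MEF, within 2-fold throughout. Prelp ranged from -1.43 to -0.67 there and lost its call under some settings. In iPS-J against ESC, the signs of Lum and Ogn turned under quantile normalization, to 0.54 and 0.58, and under spike-in scaling, to 0.08 and 0.07, so no direction is given for them.

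**Figure D5:**
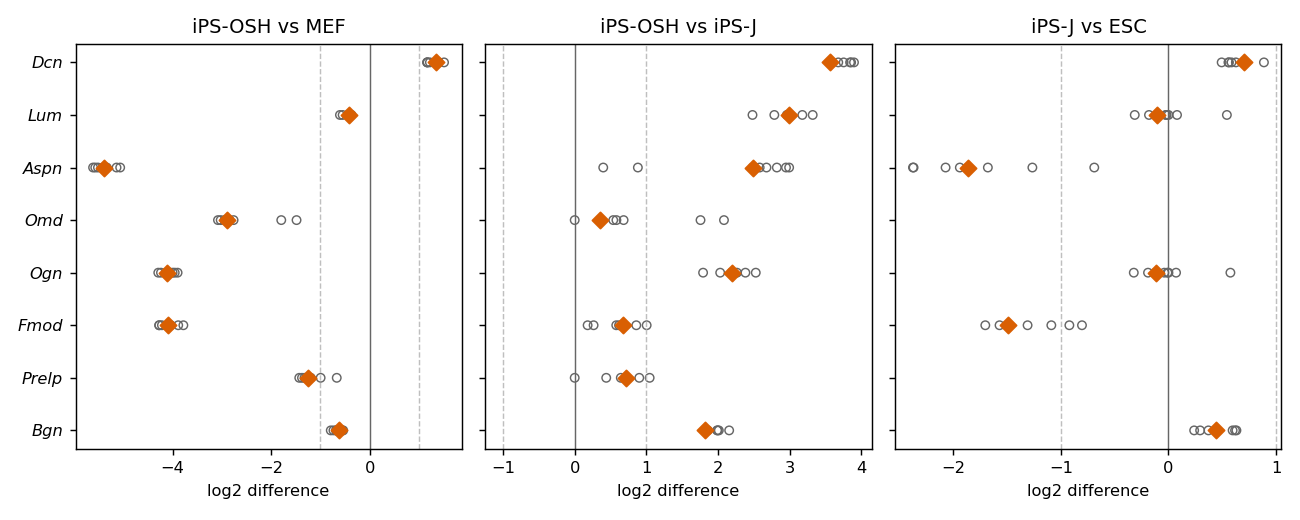
Log2 differences of 8 genes in iPS-OSH vs MEF, iPS-OSH vs iPS-J and iPS-J vs ESC as reported (orange diamonds) and under the alternative settings (open circles), with dashed lines at 2-fold. Dcn lies above the upper dashed line under every setting in the first panel (1.16 to 1.51), while Aspn in iPS-OSH vs iPS-J ranges from 0.40 to 2.99.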

How the data were processed

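RNA of 4 mouse cell populations was labelled with Cy3 and hybridized to 1-colour arrays, per the labels. The deposited scanner output gives the intensity of each spot, background-subtracted and detrended by the authors with Agilent Feature Extraction 10.5.1.1 and, per the file headers, not normalized across arrays. The authors' deposited value table holds the same intensity (largest deviation 0.497%). Detrending differed between arrays: the MEF processed signal equalled its background-subtracted signal, whereas the ratio of the signals ran from 0.859 to 1.34 (5th to 95th percentile) in ESC.

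Spots the software called uneven or outlying were left out of probe means (203 to 531 per array). Log2 signals were scaled to the array's 75th percentile over non-control spots. A probe was detected if at least 50% of its usable spots were called well above background in the deposited files. The brightest probe stood for a gene. Genes entered a comparison if detected on at least 1 of the 2 arrays. Where only 1 array detected the gene, the bright value was set against the higher of the dim value and the dimmest detected signal of that array, and the result is written as "at least". Differences of at least 2-fold were counted in 6 comparisons, with no test. The steps were tested on simulated data holding known differences. limma 3.58.1, R 4.3.3, Python 3.11.15 and pandas 2.3.3 were used.

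Of the probes, 26370 were named through the reference table's accessions, 3042 through its symbols and 735 through its synonyms, while 25534 kept the file's name. Neighbours were read from the gene order of that table, whose coordinates are not printed. The members and the 7 pathway and 9 marker lists were chosen with earlier results of these data known. The genes named were all members, every other family gene detected on any array, the 3 genes of each other pathway list with the largest differences in ESC vs MEF and in iPS-OSH vs ESC, the 2 brightest MEF genes of each marker list, the nearest protein-coding neighbours of each cluster and the 3 genes nearest in profile to each member detected on all arrays. The list of 18 genes that holds Dcn, and genes at the end of a list's range, were taken after the values were seen. Alternatives tried were normexp correction (offset 50), quantile normalization, the percentile over probes detected on all arrays, spike-in scaling, the median over a gene's probes, detection on both arrays, no filter, the deposited table and a 4-fold threshold. Signals before multiplicative detrending, no scaling and detection above the 95th percentile of ERCC control probes were added after seeing the data.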

Additional observations from a re-analysis of the deposited data

Results flagged for a closer look

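Dcn differed from MEF in opposite directions in the pluripotent lines. Its log2 difference was 1.34 in iPS-OSH, against -2.22 in iPS-J and -2.93 in ESC. The difference between the lines was not tested, since each had 1 array, and all of these values share the MEF array.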

How the results depend on the processing

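No paired analysis was possible because each group held 1 array. Of 46 member differences, 33 were at least 2-fold, and 26 of these stayed past 2-fold in the same direction under every alternative that gave a value. The other calls were Prelp in all comparisons with MEF, Omd in ESC vs MEF, Aspn in iPS-OSH vs iPS-J, and Aspn and Fmod in iPS-J vs ESC. Some alternatives could not move a call of a single member. Each member had 1 probe, so the median over probes changed nothing. Detection on both arrays only dropped values, and the deposited table holds the same intensities. The count of members at least 2-fold different in iPS-J vs ESC, 2 as reported, was 0 with normexp correction, 1 with quantile normalization, 1 with detection on both arrays, 0 at 4-fold and 1 with ERCC-based detection. In iPS-J vs MEF the count of 8 became 5 with detection on both arrays, since 3 values are bounds. In iPS-OSH vs ESC the count of 4 became 7 with no filter on dim probes and 6 with quantile normalization. It became 5 with the percentile over probes detected on all arrays, where 1 member was lower, and 5 with signals before multiplicative detrending.

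Scaling moved the median of all genes. In iPS-OSH vs MEF it was -0.34 as reported, -0.18 with quantile normalization and -0.51 unscaled, in iPS-J vs MEF -0.29, -0.13 and -0.80, and in ESC vs MEF 0.11, -0.04 and -0.31. Of all genes at least 2-fold different, 35.2% were higher in iPS-OSH vs MEF (46.3% with quantile normalization), 38.3% in iPS-J vs MEF (19.4% unscaled) and 57.5% in ESC vs MEF (34.6% with spike-in scaling). The share was 24.2% in iPS-OSH vs ESC (47.8% with spike-in scaling), 17.6% in iPS-J vs ESC (43.6% with quantile normalization) and 54.5% in iPS-OSH vs iPS-J (78.5% unscaled). Signals near background limit Omd, Prelp and Kera.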
